A study of Mus musculus with 24 samples.

Results

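The transforming growth factor-β (TGF-β) and SMAD pathway was followed here through 10 genes: the ligand Tgfb1, the protease Furin, the receptors Tgfbr1 and Tgfbr2, the signal transducers Smad1, Smad2, Smad3 and Smad4, the inhibitory Smad7, and the receptor-associated Tgfbrap1. Members were all probes that carried one of these symbols in the deposited array table. By this rule 9 of the 10 genes were found, with 17 of the 25697 probes. Of these, 12 probes of 8 genes reached a detection p of 0.02 or less on 1 or more of the 24 arrays and were tested, among 14246 probes of 10418 genes that passed the same filter. The other 5 probes were detected on 0 of 24 arrays. They were the sole probe of Smad7, 1 of 3 probes of Furin, 1 of 3 of Smad1 and 2 of 4 of Tgfbr1, so that Smad7 has no measured level.

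TGF-β1 is made as a latent precursor that furin, a proprotein convertase, cleaves in the secretory pathway. Once released, the ligand joins the type II receptor TGFBR2 and the type I receptor TGFBR1, which phosphorylates SMAD2 and SMAD3. These enter the nucleus with the shared partner SMAD4, while SMAD1 serves the bone morphogenetic protein (BMP) branch and SMAD7 blocks the receptor. In CD4 T cells the pathway is known to restrain activation and Th1 differentiation and to favour regulatory T cells.

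The arrays compared CD4+ T cells of WT mice with cells that lacked BAF180 (gene Pbrm1), a subunit of the PBAF chromatin remodelling complex. Resting naïve CD4+CD62L+ cells, labelled 95% pure, came from spleens and lymph nodes of mice aged 4 to 6 weeks, and stimulated naïve cells were these cells after 24 h with anti-CD3 and anti-CD28. Resting Th2 cells were grown from naïve cells with anti-CD3, anti-CD28, IL-4, anti-IFN-γ and IL-2, and stimulated Th2 cells were treated for a further 1.5 h with PMA and ionomycin. Each of the 8 groups had 3 arrays, replicates A, B and C. BAF180 was deleted by Cre under the CD4 promoter, late in thymocyte development, so cells had matured in part with the gene intact. All mice were labelled Balb/c, but the methods describe a B6-129 mixed background, and whether the WT controls were littermates or carried Cre is not given in the sources used here. The replicates came from separate pairs of WT and BAF180-deficient mice, so their spread includes that between animals, but whether the letters mark these pairs is not stated.

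Levels are given as normalized log2 intensities of 1 probe. Probes bind with different strength, so no probe was set against another. In bulk RNA, fewer cells of a type and less RNA per cell cannot be told apart. The brightest probe of Pbrm1 lay between 8.14 and 9.06 on the 12 WT arrays and between 6.36 and 7.88 on the 12 BAF180-deficient arrays, with no overlap, and whether it lies in the deleted part was not determined. All 6 CD4 T cell markers tested (Cd3d, Cd3e, Cd3g, Cd4, Lck and Cd28) were detected on all 24 arrays. Of 5 Th2 markers, Il1rl1 was detected on 0 of 6 resting Th2 arrays, and the summed level of the 5 was 1174 to 2356 there and 18650 to 21040 in stimulated Th2 cells. The sum was 290.6 to 460.3 in resting naïve cells. In stimulated naïve cells it was 760.7 to 2630, so it did not separate these from resting Th2 cells. Resting naïve cells also carried myeloid markers. Of 8 such genes, 7 were detected on all 6 resting naïve arrays, and Itgam was detected on 0 of 24. The summed level of the 8 was 1264 to 5601 in resting naïve cells (highest on WT replicate C) and 32.5 to 160.4 in the 18 other arrays. On those 18, Lyz2, Cd14, Fcgr3 and S100a9 were detected on none. The summed level of 6 B cell markers was 370.4 to 1089 in resting naïve cells and 22.4 to 473.3 elsewhere. The part of these cells in any difference from the resting naïve state was not tested.

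Furin, the convertase, had the largest difference between states of the tested members. In WT Th2 cells its brightest probe read 8.75, 8.07 and 8.04 at rest and 11.97, 12.04 and 12.62 after PMA and ionomycin. BAF180-deficient Th2 cells read 9.19, 9.19 and 9.12 at rest and 11.60, 12.15 and 12.13 after stimulation. All stimulated arrays thus lay above all resting arrays in both genotypes. The gain was 3.92 ± 0.32 on the log2 scale in WT cells (SE, 3 against 3 arrays, 15.2-fold, adjusted p = 1.42e-08 in limma) and 2.79 ± 0.32 in BAF180-deficient cells (6.93-fold, adjusted p = 1.7e-06). The brightest probes of the other tested members moved between -0.83 and 0.87 with the same agents in WT cells.

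A second, dimmer Furin probe behaved likewise. It was detected on 0 of 3 resting WT Th2 arrays and on 3 of 3 stimulated ones, so the WT rise was at least 10.6-fold (adjusted p = 8.23e-09). In BAF180-deficient cells it rose by 2.72 ± 0.29 (adjusted p = 4.7e-07). "At least" here sets the bright group's mean against the lowest signal of any probe above background on the arrays of the dim group.

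In naïve cells Furin passed no test of stimulation. WT cells read 10.47, 9.22 and 9.16 at rest and 9.92, 9.12 and 9.64 after 24 h of anti-CD3 and anti-CD28, and BAF180-deficient cells 9.59, 10.36 and 9.35 and then 10.33, 9.77 and 9.74. The groups overlapped in both genotypes, with differences of -0.06 ± 0.32 (adjusted p = 0.906) and 0.18 ± 0.32 (adjusted p = 0.7). Stimulus, time and cell type all differ between the naïve and Th2 comparisons, so these responses cannot be ascribed to 1 of them. Resting Th2 cells had the lowest Furin of the 4 states in both genotypes. In WT cells Furin was 1.34 ± 0.32 lower in resting Th2 than in resting naïve cells (2.52-fold, adjusted p = 0.00292). In BAF180-deficient cells the difference was -0.60 ± 0.32 (adjusted p = 0.162), with no overlap of the arrays.

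RefSeq lists 2 starts for Furin, and the 250 bases before each are shown because this gene responded most. In these and the later promoters, capitals mark matches on either strand to 7 motifs: AP-1 (TGANTCA), CRE (TGACGTCA), NFAT (GGAAA), NF-kB, STAT (TTCNNNGAA), SMAD (CAGAC) and Sp1 (GGGCGG). Sequences are from RefSeq, build GRCm38.p6, and run 5′ to 3′ on the gene's strand, and 7 of the 10 members had an entry.
Furin, first start, chr7:80405437-80405686, minus strand: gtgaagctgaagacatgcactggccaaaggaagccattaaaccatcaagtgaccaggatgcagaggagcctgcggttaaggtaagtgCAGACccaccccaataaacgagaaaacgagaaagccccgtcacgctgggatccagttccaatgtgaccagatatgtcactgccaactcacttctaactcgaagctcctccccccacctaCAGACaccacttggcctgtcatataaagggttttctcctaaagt
Furin, second start, chr7:80402813-80403062, minus strand: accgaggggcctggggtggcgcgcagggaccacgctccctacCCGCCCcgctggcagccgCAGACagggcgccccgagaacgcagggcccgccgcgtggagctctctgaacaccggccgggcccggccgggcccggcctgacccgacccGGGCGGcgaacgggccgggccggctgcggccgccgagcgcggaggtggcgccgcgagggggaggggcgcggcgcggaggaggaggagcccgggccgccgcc
The first window held 2 SMAD motifs and the second 1 SMAD and 2 Sp1 motifs. Neither window held the letters of AP-1, CRE, NFAT, NF-kB or STAT. Among 32851 such windows of the genome's genes, 42.2% held the SMAD letters, 32.7% Sp1, 55.6% NFAT, 17.6% NF-kB, 7.02% STAT, 6.75% AP-1 and 1.55% CRE. A match of letters is not a binding site, and elements outside the window were not seen.

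**Figure D1:**
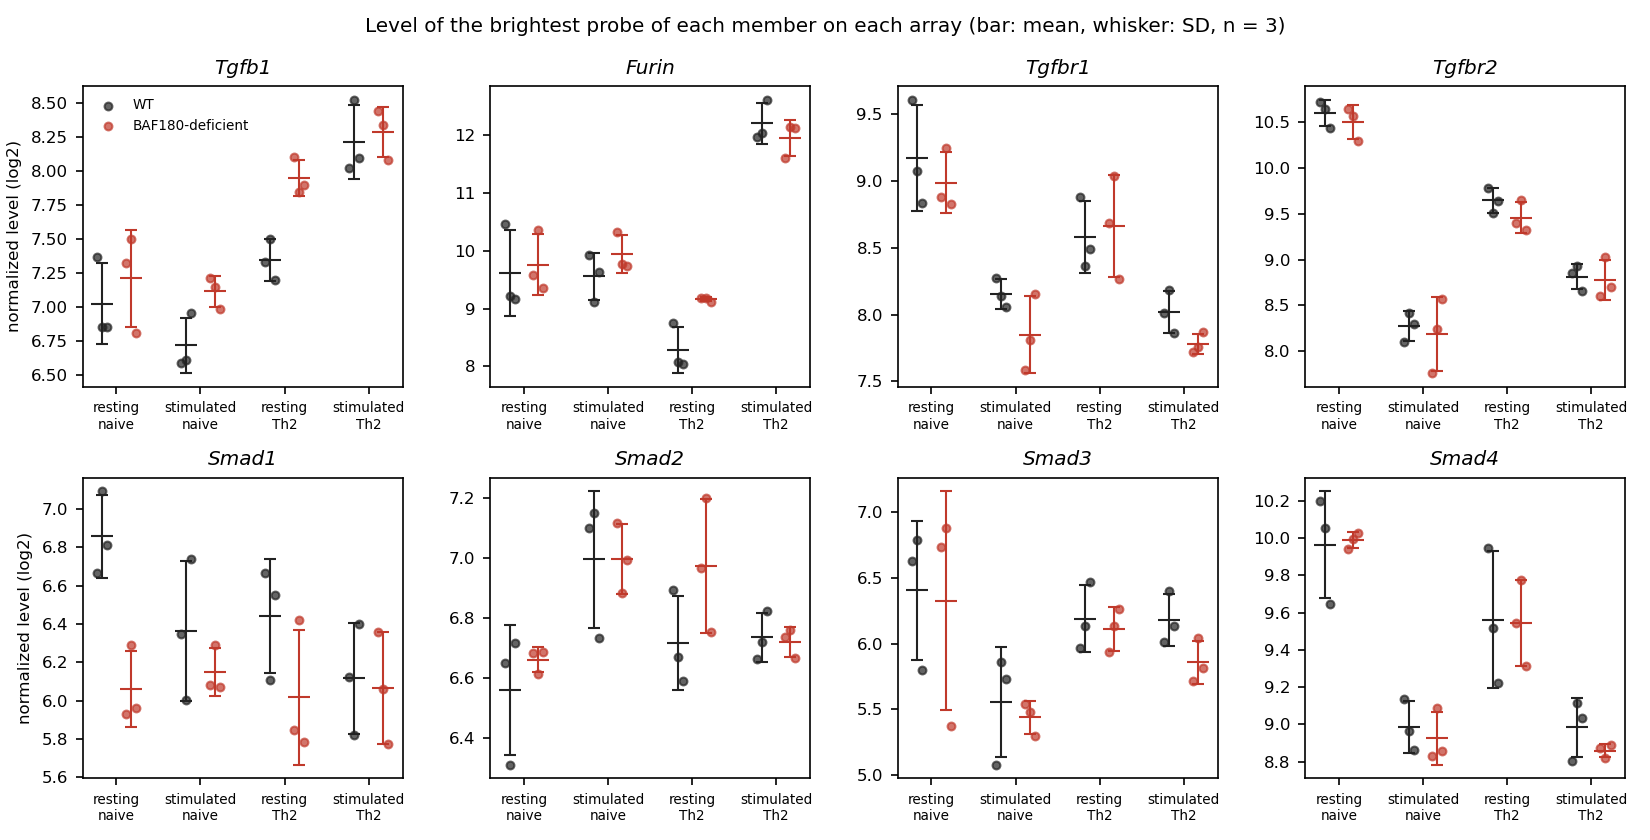
Normalized log2 level (vertical axis) of the brightest probe of each of the 8 tested members on each of the 24 arrays, by cell state, in WT (black) and BAF180-deficient (red) cells, with the mean and SD of 3 arrays. Furin in stimulated Th2 cells sits between 11.60 and 12.62, above all other arrays, and Tgfbr2 is highest in resting naïve cells, between 10.30 and 10.72.

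Tgfb1, the ligand, was highest in stimulated Th2 cells, by a smaller margin. WT Th2 cells read 7.34, 7.51 and 7.20 at rest and 8.03, 8.53 and 8.10 after stimulation, a rise of 0.87 ± 0.18 (1.83-fold, adjusted p = 0.00116). BAF180-deficient Th2 cells read 8.10, 7.85 and 7.90 and then 8.44, 8.34 and 8.08, a difference of 0.34 ± 0.18 (adjusted p = 0.206) with overlapping arrays. In BAF180-deficient cells Tgfb1 was 0.74 ± 0.18 higher in resting Th2 than in resting naïve cells (1.67-fold, adjusted p = 0.00392), and in WT cells the difference was 0.32 ± 0.18 (adjusted p = 0.194). Naïve WT cells read 7.37, 6.85 and 6.86 at rest and 6.59, 6.61 and 6.95 when stimulated, and neither genotype's naïve cells passed the test for stimulation (adjusted p = 0.193 and 0.722). The only Tgfb1 probe lies in the coding sequence of the mature cytokine and its 50 bases, as the array table gives them, were the following.
Tgfb1 probe, chromosome 7, base 1893 onward of its transcript: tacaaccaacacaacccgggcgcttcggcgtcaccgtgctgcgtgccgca
Before the RefSeq start, a window of 250 bases held 5 Sp1 motifs and 1 NF-kB motif.
Tgfb1, chr7:25686752-25687001, plus strand: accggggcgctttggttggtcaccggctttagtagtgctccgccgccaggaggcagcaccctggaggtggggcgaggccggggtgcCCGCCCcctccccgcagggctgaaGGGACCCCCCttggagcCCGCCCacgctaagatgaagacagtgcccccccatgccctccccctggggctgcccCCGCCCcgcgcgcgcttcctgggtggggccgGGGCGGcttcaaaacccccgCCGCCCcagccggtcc

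Tgfbr2, the receptor that binds the ligand, was highest in resting naïve cells and lower in each of the other states. WT arrays read 10.72, 10.65 and 10.44 in resting naïve, 8.10, 8.42 and 8.30 in stimulated naïve, 9.79, 9.51 and 9.64 in resting Th2 and 8.85, 8.93 and 8.66 in stimulated Th2 cells. BAF180-deficient arrays read 10.65, 10.57 and 10.30, then 7.76, 8.24 and 8.57, then 9.40, 9.65 and 9.32, and then 8.60, 9.02 and 8.71. The order of the 4 states was the same in both genotypes, and neighbours in it did not overlap in either. Stimulation of naïve cells lowered Tgfbr2 5.02-fold in WT cells (log2 difference -2.33 ± 0.17, adjusted p = 1.53e-09) and 4.98-fold in BAF180-deficient cells (-2.32 ± 0.17, adjusted p = 1.75e-09). Resting Th2 cells lay below resting naïve cells by 0.95 and 1.05 on the log2 scale (adjusted p = 0.000248 in WT and 9.19e-05 in BAF180-deficient cells). Stimulation of Th2 cells lowered it further, by 0.83 in WT (adjusted p = 0.000989) and by 0.68 in BAF180-deficient cells (adjusted p = 0.00576).

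A second Tgfbr2 probe, in the kinase-coding part of the transcript, was lower in the first pair of comparisons too, and not in the last. It was lower in stimulated than in resting naïve cells by 1.43 ± 0.19 and 1.49 ± 0.19, and lower in resting Th2 than in resting naïve cells by 1.19 ± 0.19 and 1.51 ± 0.19 (adjusted p of 7.34e-05 or less for each). Between stimulated and resting Th2 cells it differed by 0.03 ± 0.19 in WT (adjusted p = 0.951) and 0.09 ± 0.19 in BAF180-deficient cells (adjusted p = 0.816). Its levels there, between 4.50 and 5.31, were near the bottom of the scale. The probe is printed because it departs from the brighter one.
Tgfbr2 second probe, chromosome 9, base 1643 onward of its transcript: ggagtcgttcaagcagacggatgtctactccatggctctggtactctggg

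Tgfbr1, the kinase that passes the signal on, fell in parallel at a smaller size. WT cells read 9.61, 9.07 and 8.84 in resting naïve, 8.27, 8.14 and 8.05 in stimulated naïve, 8.88, 8.37 and 8.49 in resting Th2 and 8.01, 8.18 and 7.86 in stimulated Th2 cells. Stimulation of naïve cells lowered it by 1.02 ± 0.21 in WT (2.03-fold, adjusted p = 0.000425) and by 1.14 ± 0.21 in BAF180-deficient cells (2.20-fold, adjusted p = 0.000146). Stimulation of Th2 cells lowered it 1.48-fold in WT (adjusted p = 0.0496) and 1.84-fold in BAF180-deficient cells (adjusted p = 0.00301). Resting Th2 cells lay 0.59 ± 0.21 below resting naïve cells in WT (adjusted p = 0.0316), with overlapping arrays, and the difference was -0.32 ± 0.21 in BAF180-deficient cells (adjusted p = 0.243). A second probe, detected on 11 of 24 arrays, read 5.31, 4.71 and 4.51 in resting naïve WT cells, with replicate A alone detected, and was 0.42 ± 0.15 lower when stimulated (adjusted p = 0.0259). In BAF180-deficient cells that probe differed by 0.01 ± 0.15. The WT call between Th2 states was lost in 5 of 6 fits that left out 1 array, all but that without resting replicate B, with differences of -0.64 to -0.41 and adjusted p of 0.055 to 0.224. The WT call between resting states was lost in 3 of 6, without naïve replicate A (-0.38, adjusted p = 0.2) and without Th2 replicate B (-0.49, adjusted p = 0.123) or C (-0.55, adjusted p = 0.0905). The windows before the first listed start of each receptor are shown because the genes moved together.
Tgfbr1, chr4:47352972-47353221, plus strand: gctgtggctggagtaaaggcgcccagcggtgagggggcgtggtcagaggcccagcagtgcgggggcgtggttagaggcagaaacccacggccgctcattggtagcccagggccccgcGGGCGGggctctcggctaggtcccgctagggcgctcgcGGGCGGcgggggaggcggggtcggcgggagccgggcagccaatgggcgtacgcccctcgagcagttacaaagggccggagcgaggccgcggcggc
Tgfbr2, chr9:116175364-116175613, minus strand: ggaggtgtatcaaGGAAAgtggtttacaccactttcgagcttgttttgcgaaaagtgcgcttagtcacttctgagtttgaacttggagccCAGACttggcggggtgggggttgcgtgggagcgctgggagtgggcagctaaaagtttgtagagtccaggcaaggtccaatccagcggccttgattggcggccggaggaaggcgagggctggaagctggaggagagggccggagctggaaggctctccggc
The Tgfbr1 window held 2 Sp1 motifs and the Tgfbr2 window 1 NFAT and 1 SMAD motif. RefSeq lists a second Tgfbr1 start, and the window before it held 1 SMAD motif.

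Smad4, the partner that SMAD2 and SMAD3 need, was lowered by stimulation as the receptors were. WT arrays read 10.20, 10.05 and 9.64 in resting naïve, 9.14, 8.97 and 8.86 in stimulated naïve, 9.95, 9.52 and 9.22 in resting Th2 and 8.80, 9.11 and 9.03 in stimulated Th2 cells. Stimulation of naïve cells lowered Smad4 1.97-fold in WT (adjusted p = 8.44e-05) and 2.09-fold in BAF180-deficient cells (adjusted p = 3.35e-05). Stimulation of Th2 cells lowered it 1.49-fold (adjusted p = 0.0137) and 1.61-fold (adjusted p = 0.00451). The stimulated arrays lay below the resting ones without overlap in all these comparisons. Between resting Th2 and resting naïve cells it was 0.44 ± 0.17 lower in BAF180-deficient cells (adjusted p = 0.0477) and differed by -0.40 ± 0.17 in WT cells (adjusted p = 0.0729). The BAF180-deficient call was lost in 5 of 6 fits with 1 array left out, all but that without Th2 replicate B (adjusted p of 0.0771 to 0.209), and the WT difference passed without naïve replicate C (-0.56, adjusted p = 0.0169) or Th2 replicate A (-0.60, adjusted p = 0.0116). The WT call between Th2 states was lost without resting replicate A (-0.39, adjusted p = 0.111) or stimulated replicate A (-0.49, adjusted p = 0.0722).

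Of the receptor-regulated SMADs, Smad3 fell on stimulation of naïve cells, with arrays of the compared groups overlapping. WT cells read 6.62, 6.79 and 5.80 at rest and 5.08, 5.86 and 5.73 when stimulated (-0.85 ± 0.30, adjusted p = 0.0291). BAF180-deficient cells read 6.73, 6.88 and 5.37 and then 5.54, 5.48 and 5.30 (-0.89 ± 0.30, adjusted p = 0.0239). Replicate C of both resting naïve groups lay below A and B. With 1 array left out the WT call was lost in 3 of 6 fits, without resting replicate A (-0.74, adjusted p = 0.101) or B (-0.66, adjusted p = 0.131) or stimulated replicate A (-0.61, adjusted p = 0.149). The BAF180-deficient call was lost in 4 of 6, without resting replicate A (-0.68, adjusted p = 0.12) or B (-0.61, adjusted p = 0.152) or stimulated replicate B (-0.91, adjusted p = 0.0501) or C (-0.81, adjusted p = 0.0769). Smad2 rose in this comparison, from 6.65, 6.31 and 6.72 to 7.10, 7.15 and 6.73 in WT cells (0.44 ± 0.14, adjusted p = 0.0153). That call was lost in 3 of 6 fits, without resting replicate B (0.31, adjusted p = 0.1) and without stimulated replicate A (0.38, adjusted p = 0.0599) or B (0.36, adjusted p = 0.0755). In BAF180-deficient cells it differed by 0.34 ± 0.14 (adjusted p = 0.0603). Neither gene passed the test in any other comparison of states. Smad1 passed in none, with WT levels of 6.66 to 7.09 in resting naïve and 5.82 to 6.40 in stimulated Th2 cells.

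**Figure D2:**
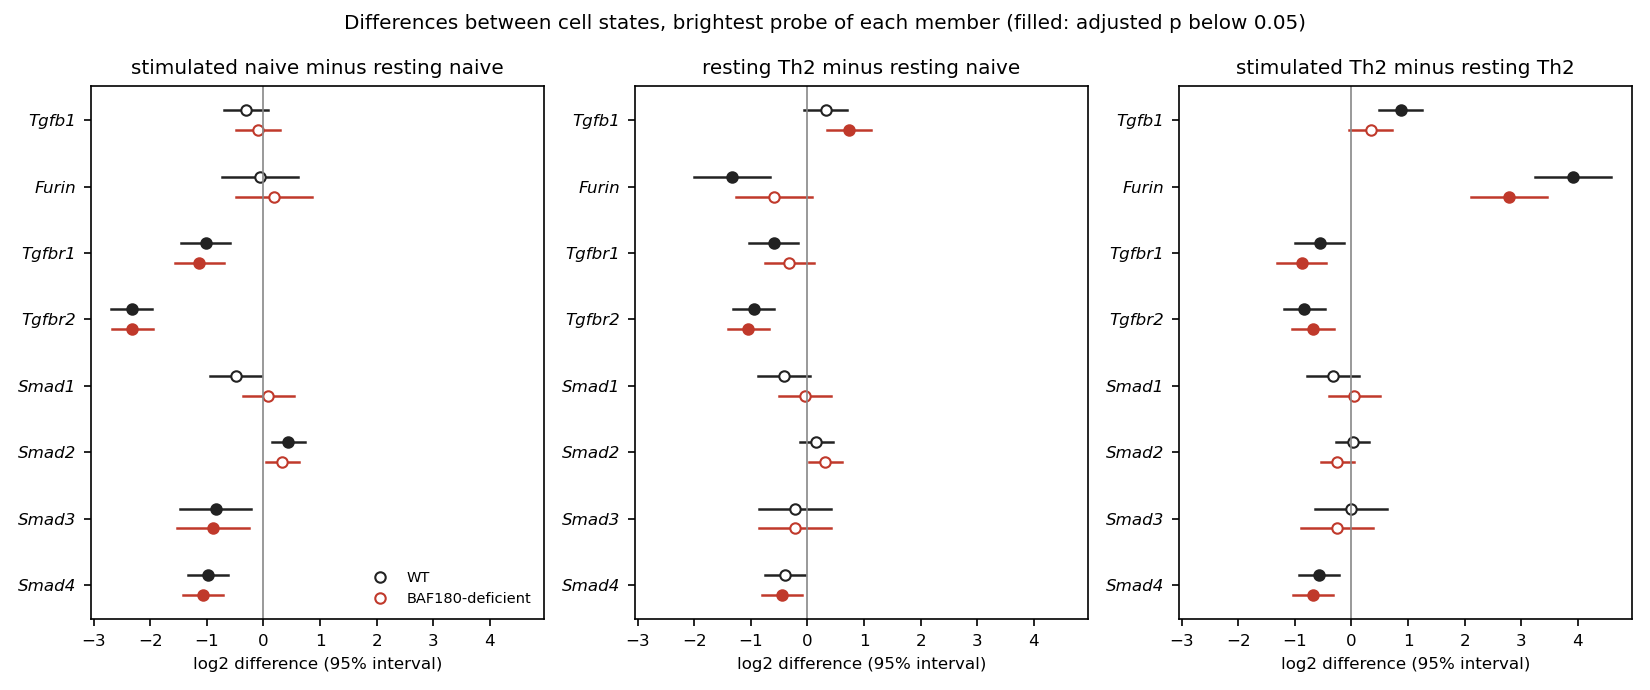
Difference of each member's brightest probe between cell states (horizontal axis, log2, with 95% intervals), in WT (black) and BAF180-deficient (red) cells. Filled points passed an adjusted p of 0.05 over all kept probes. Furin and Tgfb1 lie to the right for stimulated Th2 cells, at 3.92 and 0.87 in WT, while Tgfbr1, Tgfbr2 and Smad4 lie to the left in all 3 comparisons.

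Many probes on the array changed between states, and the members' counts are set beside these shares. Between stimulated and resting naïve WT cells, 1 of the 12 member probes was higher and 6 lower, against 23.6% and 20.0% of all kept probes. The median difference of the 8 brightest probes was -0.67, against 0.01 over all probes. In BAF180-deficient cells 0 were higher and 5 lower, against 22.3% and 19.3%, with medians of -0.49 and 0.02. Between resting Th2 and resting naïve WT cells 0 were higher and 5 lower, against 18.4% and 16.0%, with medians of -0.41 and 0.03. In BAF180-deficient cells 1 was higher and 3 lower, against 18.8% and 15.9%, with medians of -0.27 and 0.03. Between stimulated and resting Th2 WT cells 3 were higher and 3 lower, against 13.0% and 14.3%, and in BAF180-deficient cells 2 were higher and 3 lower, against 12.0% and 13.8%. The higher probes came from 2 genes in WT, Furin and Tgfb1, and from 1 gene, Furin, in BAF180-deficient cells. Median differences there were -0.17 in WT and -0.25 in BAF180-deficient cells, against -0.0018 and -0.0042 over all probes. The comparisons with resting naïve cells share those arrays, and the lower probes in each included both kept probes of Tgfbr2.

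Loss of BAF180 left most members within the spread of the arrays. A probe was called between genotypes by the cut-offs of the 4 criteria in the study's methods. These are a Z-ratio beyond 1.5, a false discovery rate below 0.3, a p below 0.05 and a positive signal. Here they were applied to the limma fit, with Benjamini-Hochberg as the rate. The Z-ratio was the log2 difference divided by the SD of all probes' differences. The study computed its statistics from Z-scores with other software, so the calls below are not the study's calls. Of the 12 member probes, 1 was called in resting naïve cells, where 0.681% of all kept probes were. None was called in stimulated naïve (0.112% of all), resting Th2 (0.0842%) or stimulated Th2 cells (0.0913%). At an unadjusted p under 0.05 the member probes numbered 2, 1, 2 and 0 in these states. Of all 14246 kept probes, 973, 321, 489 and 397 reached it. With 3 arrays against 3, an exact permutation test of a single probe cannot go below 0.1, its value where the groups do not overlap.

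The called probe was the brightest of Smad1, the BMP-branch SMAD, which the paper names among genes apparently activated by BAF180 in naïve cells. Resting naïve WT cells read 6.66, 7.09 and 6.81 and BAF180-deficient cells 5.93, 6.29 and 5.96, with no overlap. The difference was -0.80 ± 0.22 (1.74-fold lower, adjusted p = 0.263 in limma). Another Smad1 probe, detected on all arrays, differed by -0.24 ± 0.20 (adjusted p = 0.974) with overlapping arrays. In the other states the brightest probe differed by -0.21, -0.43 and -0.05. The call ended without WT replicate B (-0.68, adjusted p = 0.414), without BAF180-deficient replicate A (-0.73, adjusted p = 0.459) or C (-0.75, adjusted p = 0.367), and with the Z-score normalization of the methods.

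The paper, by its own calls on these arrays, names Furin among genes apparently repressed by BAF180 in Th2 cells. It does not say in which Th2 state. Here the brightest probes of Furin and Tgfb1 read higher in BAF180-deficient than in WT resting Th2 cells, without being called. Furin differed by 0.88 ± 0.32 in BAF180-deficient cells (1.84-fold, 95% interval 0.21 to 1.56, adjusted p = 1), and Tgfb1 by 0.60 ± 0.18 (1.52-fold, 95% interval 0.22 to 0.99, adjusted p = 0.759). For both probes the arrays of the genotypes did not overlap, which gives an exact permutation p of 0.1. How many of all kept probes lacked overlap between genotypes was not counted in any state. The dimmer Furin probe differed by 0.38 ± 0.29 (95% interval -0.21 to 0.97). It was detected on 0 of 3 WT and 2 of 3 BAF180-deficient resting Th2 arrays. The summed level of the 6 regulatory T cell markers on the array, all detected on all 24 arrays, was 1871 to 2496 in WT and 2524 to 3364 in BAF180-deficient resting Th2 cells. Of the 6, 5 had a positive difference, as had 50.1% of all kept probes, and 0 were called. At an unadjusted p under 0.05 there were 2, as were 489 of all 14246 kept probes. In resting naïve cells 6 of 6 were positive, against 49.6% of all kept probes, and 0 were called. Among the 6 markers are Foxp3, Il2ra and Ctla4, which the paper lists beside Furin as apparently repressed by BAF180 in Th2 cells. It names Foxp3 among repressed genes in naïve cells too. Whether the sum followed the number of regulatory T cells or the level of these genes per cell was not tested. The part of these markers in the Furin and Tgfb1 values was not tested either. In resting naïve and in stimulated Th2 cells the genotypes overlapped for both genes. Differences in stimulated Th2 cells were -0.25 ± 0.32 for Furin and 0.07 ± 0.18 for Tgfb1. The dimmer Furin probe differed there by -0.50 ± 0.29, also with overlap. Tgfb1 also differed by 0.40 ± 0.18 in stimulated naïve cells, without overlap (adjusted p = 1). The change of the genotype difference from resting to stimulated Th2 cells was -1.13 ± 0.46 for Furin and -0.53 ± 0.26 for Tgfb1, and neither passed (adjusted p = 1 for both). Of all kept probes, 0% passed for this change, 0.00702% for the change on stimulation of naïve cells and 0.00702% for that between the resting states, and no member probe passed for any of them. At an unadjusted p under 0.05 there were 2 member probes for the change in Th2 cells, both of Furin, and 0 for the others. Of all 14246 kept probes, 257 reached it for Th2 cells, 329 for stimulation of naïve cells and 387 between the resting states.

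No probe of either receptor, Smad2, Smad3 or Smad4 was called between genotypes. The ranges that follow are of the brightest probes. The genotype difference of Tgfbr2 was between -0.19 and -0.04 in the 4 states, each with an SE of 0.17, and that of Smad4 between -0.12 and 0.02. Tgfbr1 differed by -0.31 to 0.08, Smad2 by -0.02 to 0.26 and Smad3 by -0.32 to -0.08. The 95% interval of Smad3 in stimulated Th2 cells, which reached farthest from 0 among these 5 genes, ran from -0.96 to 0.31.

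**Figure D3:**
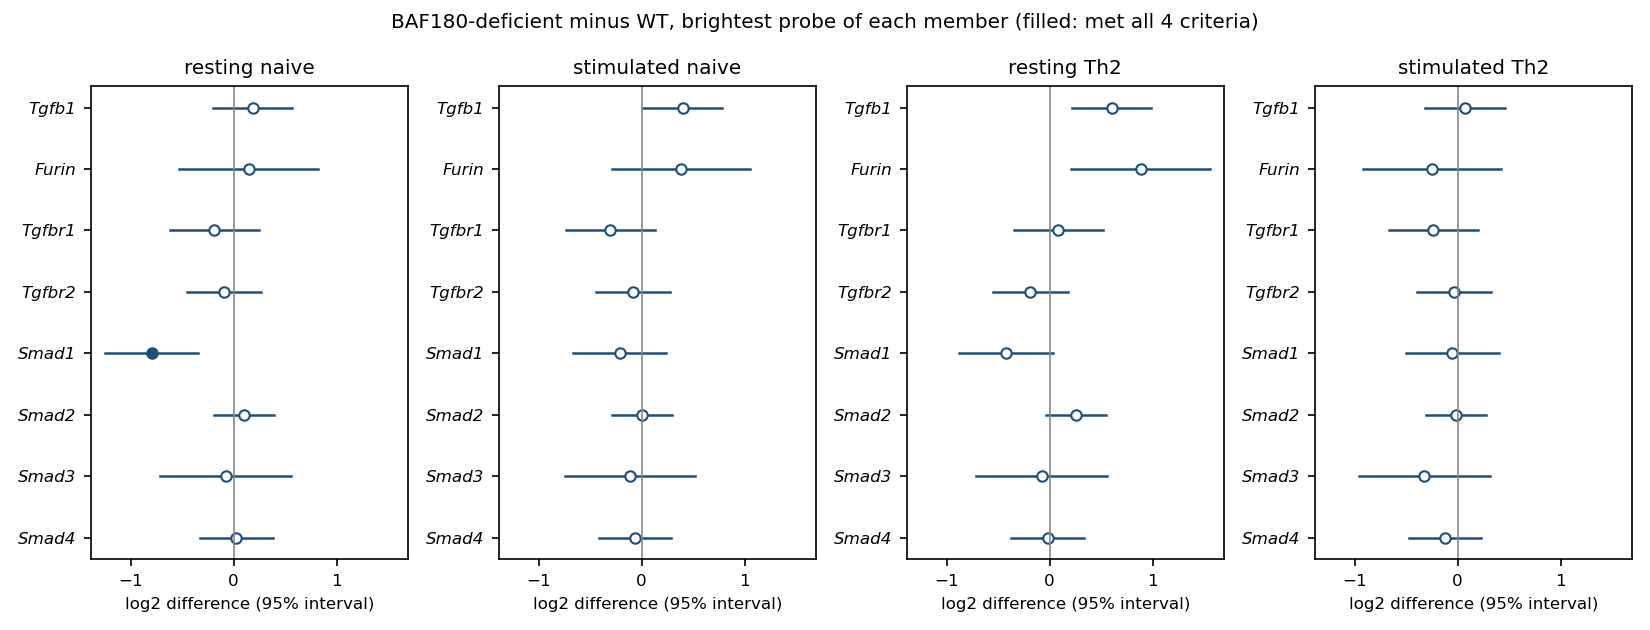
BAF180-deficient minus WT difference of each member's brightest probe (horizontal axis, log2, with 95% intervals) in each of the 4 cell states. The filled point, Smad1 in resting naïve cells at -0.80, met all 4 criteria. Furin and Tgfb1 in resting Th2 cells lie at 0.88 and 0.60 with intervals above 0.

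Tgfbrap1 had no probe under its own symbol, but 1 probe under 3110018K12Rik, which RefSeq gives as an older name of the gene, was detected on all 24 arrays. It stands outside the rule and is given as a description. It read 8.36 ± 0.20 in resting and 7.79 ± 0.28 in stimulated naïve WT cells (SD, n = 3), and its genotype difference ran from -0.01 in resting naïve to 0.48 in stimulated Th2 cells.

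The other pathway genes came from 8 lists with 67 genes, of which 46 had a kept probe. Each was counted by its brightest probe, while the shares are of all kept probes, dimmer probes of a gene included. Between stimulated and resting naïve WT cells 4 of the 46 were higher and 16 lower, against 23.6% and 20.0% of all kept probes, and in BAF180-deficient cells 5 and 18, against 22.3% and 19.3%. From resting naïve to resting Th2, 4 rose and 15 fell in WT (18.4% and 16.0% of all probes) and 6 and 17 in BAF180-deficient cells (18.8% and 15.9%). From resting to stimulated Th2, 7 rose and 8 fell in WT (13.0% and 14.3%) and 7 and 9 in BAF180-deficient cells (12.0% and 13.8%). The median differences in WT were -0.20, -0.22 and -0.02 in these 3 comparisons, against 0.01, 0.03 and -0.0018 over all probes. Between genotypes 1 of the 46 was called in resting naïve cells, where 0.681% of all kept probes were. None was called in stimulated naïve (0.112% of all), resting Th2 (0.0842%) or stimulated Th2 cells (0.0913%). The called gene, Acvr2b, an activin receptor, was 0.90 ± 0.22 higher in BAF180-deficient resting naïve cells (adjusted p = 0.161). That call was lost without WT replicate B (0.76, adjusted p = 0.329) or BAF180-deficient replicate B (0.83, adjusted p = 0.386).

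Among genes of latent TGF-β and its activation, Itgav, the αV integrin chain that helps release the ligand, rose with Furin in stimulated Th2 cells, by 2.65 ± 0.26 in WT and 2.59 ± 0.26 in BAF180-deficient cells (adjusted p = 1.21e-07 and 2.18e-07). Nrros, which holds latent TGF-β at the surface of myeloid cells, fell by 1.94 ± 0.29 on stimulation of naïve WT cells (adjusted p = 1.48e-05). Its difference between stimulated and resting Th2 cells was -1.10 ± 0.29 in WT (adjusted p = 0.00667) and -1.17 ± 0.29 in BAF180-deficient cells (adjusted p = 0.00454). Of 3 other convertases kept, Pcsk7 was lower in all 3 WT comparisons, by 0.59 and 0.53 on stimulation of naïve and Th2 cells and by 0.52 in resting Th2 against resting naïve cells (adjusted p = 0.0039, 0.0132 and 0.0129). The Th2 call was lost without stimulated replicate C (-0.43, adjusted p = 0.073) or resting replicate B (-0.49, adjusted p = 0.0522), and the last without naïve replicate A (-0.46, adjusted p = 0.0539). Mbtps1 was 1.19 ± 0.18 lower in stimulated naïve WT cells (adjusted p = 1.3e-05).

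Of 7 other receptors of the superfamily, Tgfbr3, the co-receptor betaglycan, fell on stimulation as Tgfbr2 did. Its log2 differences were -1.56 ± 0.31 in naïve WT cells and -1.81 ± 0.31 in WT Th2 cells (adjusted p = 0.000292 and 0.000117). Bmpr1a was not detected on any resting naïve array and was at least 1.25-fold higher in resting WT Th2 cells. Of 7 SMAD cofactors, Ep300, a histone acetyltransferase, fell by 1.08 in stimulated naïve and 1.55 in stimulated Th2 WT cells. Skil, a SMAD corepressor, was lower in resting Th2 than in resting naïve WT cells (-1.76 ± 0.41, adjusted p = 0.00236). Tgif1, another corepressor, read 8.70, 7.84 and 5.58 in resting naïve and 6.33, 5.77 and 5.28 in resting Th2 WT cells, with naïve replicate C inside the Th2 range (-1.58 ± 0.56, adjusted p = 0.0334). The Tgif1 difference was -2.48 without that array and -0.92 without naïve replicate A (adjusted p = 0.00027 and 0.235), and the call was also lost without naïve replicate B or Th2 replicate B or C (-1.57 to -1.33, adjusted p of 0.0726 to 0.124).

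Among inhibitors and turnover genes, Smurf2 and Nedd4l, ubiquitin ligases of the pathway, fell by 1.22 and 1.13 in stimulated naïve WT cells. Fkbp1a, whose product holds the type I receptor inactive, was 2.85 ± 0.19 higher in resting Th2 than in resting naïve WT cells (adjusted p = 3.45e-10) and 2.61 ± 0.19 higher in BAF180-deficient cells.

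Of 10 kept genes known to be raised by TGF-β, 5 were lower and 0 higher in stimulated naïve WT cells, and 5 lower and 2 higher in resting WT Th2 cells, where 20.0% and 16.0% of all probes were lower and 23.6% and 18.4% higher. Between stimulated and resting WT Th2 cells 0 were lower and 3 higher, where 14.3% and 13.0% of all probes were. The 3 were Tgif1 (1.80 ± 0.56, adjusted p = 0.0194), Id2 (0.96 ± 0.31, adjusted p = 0.0244) and Cdkn2b, a cell cycle inhibitor (0.76 ± 0.17, adjusted p = 0.00164). The Id2 call was lost without stimulated replicate B or C or resting replicate B (0.67 to 0.96, adjusted p of 0.0596 to 0.163). Itgae, the CD103 integrin chain, was lower in stimulated naïve and resting Th2 WT cells than in resting naïve ones (-2.85 ± 0.30 and -3.16 ± 0.30). Tgfbi was detected on all resting naïve arrays and on 0 of 18 others, a fall of at least 9.79-fold in stimulated naïve WT cells, but Tgfbi is also made by myeloid cells, whose markers shared this pattern, and their part in it was not tested. Cdkn1a, another cell cycle inhibitor, went the other way, 3.01 ± 0.47 higher in resting Th2 than in resting naïve WT cells. Of 4 kept genes known to be lowered by TGF-β in T cells, 2 were higher and 0 lower in stimulated against resting WT Th2 cells. The shares of all probes were 13.0% and 14.3%. Tbx21 and Ifng, the Th1 regulator and its cytokine, rose by 3.13 ± 0.28 and 6.05 ± 0.40. In stimulated naïve WT cells 2 were higher (23.6% of all probes), Tbx21 (2.42 ± 0.28) and Ifng (2.34 ± 0.40). There 1 was lower (20.0% of all), Prf1, which encodes perforin (adjusted p = 0.000825). In resting Th2 against resting naïve WT cells 0 were higher (18.4% of all) and 2 lower (16.0%), Ifng (-2.44 ± 0.40) and Prf1 (-1.17 ± 0.22).

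**Figure D4:**
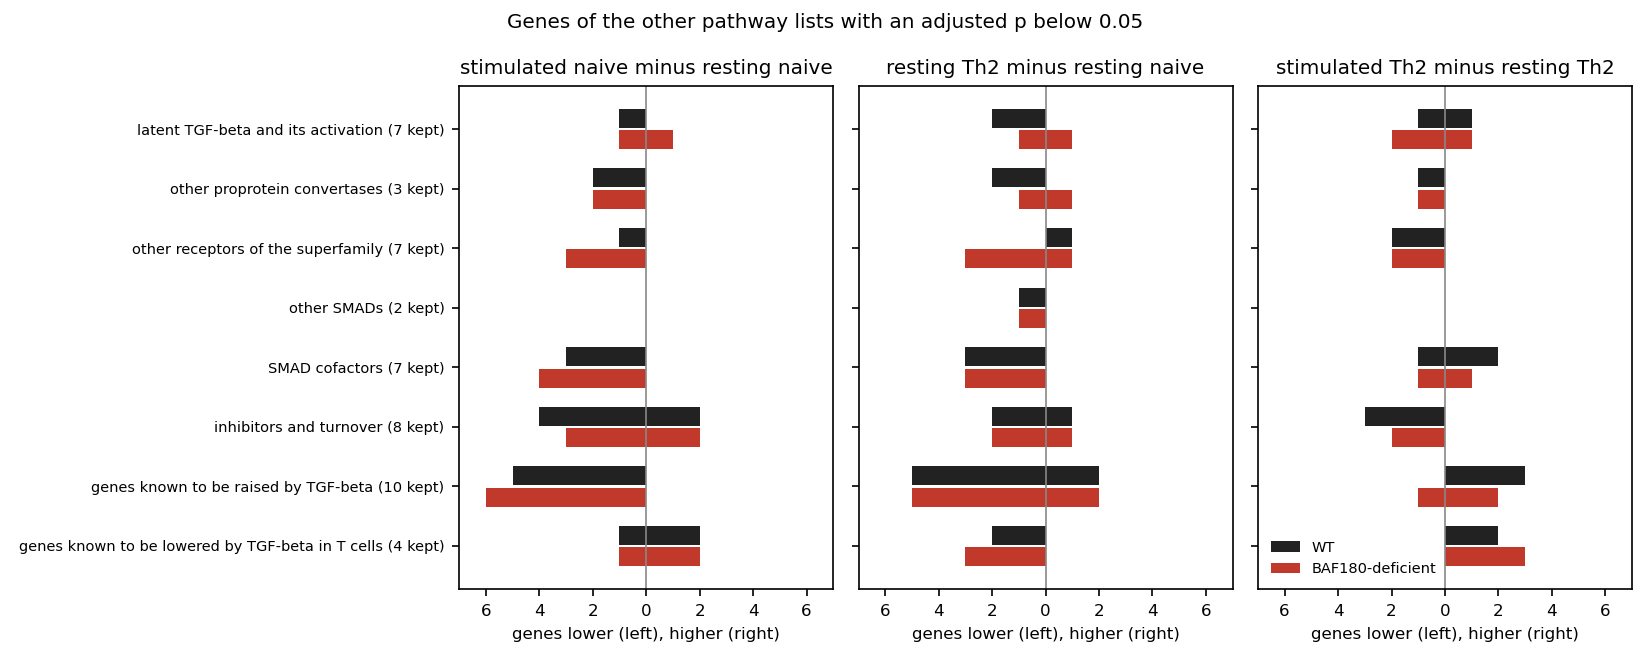
Number of genes of each of the 8 other pathway lists that were higher (bars to the right of 0) or lower (to the left) at an adjusted p under 0.05 in each comparison of cell states, in WT (black) and BAF180-deficient (red) cells, with the number of genes kept in brackets. Genes raised by TGF-β reach 6 lower genes in stimulated naïve BAF180-deficient cells.

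Across the 24 arrays, which fall in 8 groups and share their normalization, Tgfbr1, Tgfbr2 and Smad4 varied together. Pearson's r was 0.937 for Tgfbr1 and Smad4, 0.898 for Tgfbr2 and Smad4 and 0.885 for both receptors. With group means removed these values were 0.671, 0.266 and 0.641. The 2 genes outside the pathway whose brightest probes were most like each member were Zswim4 (r = 0.963) and Phlda1 (0.953) for Furin, Cdkn2a (0.904) and Mmp10 (0.901) for Tgfb1, Myl12b (0.958) and Mxd4 (0.956) for Tgfbr2, Setd1b (0.943) and Sh3kbp1 (0.938) for Tgfbr1, and Fry (0.959) and Sh3kbp1 (0.957) for Smad4. For Smad1, Smad2 and Smad3 the highest values were 0.745 (Cd300ld3), 0.794 (Gatc) and 0.833 (B4galt1). These values describe the arrays and carry no test.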

How the data were processed

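Total RNA of 24 samples was labelled and hybridized to Illumina MouseRef-8 v2 BeadChips. The authors deposited, for each probe and array, the average intensity exported by GenomeStudio 1.6.0 (the version in the submitters' notes) without normalization or background subtraction, and the detection p-value. The neqc function of limma 3.58.1 (R 4.3.3) subtracted background, added an offset of 16, took log2 and applied quantile normalization, which assumes equal distributions on all arrays. A probe was kept if any array gave it a detection p of 0.02 or less. Between 8047 and 10689 probes were detected per array, replicate arrays correlated at 0.949 to 0.989, and the number of arrays limits the precision. The fit had 8 group means with moderated variances (16 residual degrees of freedom), and p-values were adjusted by Benjamini-Hochberg over all kept probes, with 0.05 as the call between states and for changes of a genotype difference. The signal criterion of the genotype call was always met. Marker levels were summed on the linear scale after subtraction of the offset.

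Members, gene lists and tests were chosen with earlier results of these data known. Each member is given by its kept probe with the highest mean level, with other probes where they disagree. From each list up to 3 called genes with the largest differences per comparison could be named. Likeness took the highest 2 correlations. The alternatives tried were Z-score normalization as in the methods, no background correction, other detection filters, other sets of arrays, ordinary variances, a replicate block and leaving out each array. The fit was tested on simulated data. The table's annotation was used for member symbols, and RefSeq for list genes (16938 probes matched by Entrez ID, 7420 by accession).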

Additional observations from a re-analysis of the deposited data

How the results depend on the processing

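No call or count reversed its direction under any alternative run. The differences below are log2 values except where stated. A fit with the replicate letter as a replicate block changed none of the 33 single differences examined and no count of member probes (1 in resting naïve cells between genotypes, as without the block). Deviations of same-letter arrays correlated between -0.00263 and 0.662 within the 4 states, with 2 of 12 values at or below 0.1, and at 0.301, 0.136 and 0.516 for A, B and C pooled over the states. The arrays came from pairs of mice, but whether the letters mark the pairs is not stated, so values are given without the block. The numbers of arrays and probes near background limit what was resolved, and no fit with the slide as a block was run because the slide of each array is not given in the sources used here. Quantile normalization over kept probes, chosen after seeing the data, changed none of the 33. The member probe called between genotypes in resting naïve cells became 0 with Z-score normalization, no detection filter, only the arrays compared, normalization within the state, ordinary variances, or an adjusted p below 0.05 as the call, and 0 to 2 with 1 array left out. The other pathway gene called there became 0 with Z-score normalization and 0 to 2 with 1 array left out. The Smad1 difference there was then -0.4453 in Z units, -0.7972 without a filter and with only the arrays compared, -0.6711 normalized within the state and -0.5168 as the mean over its probes, none of them called, and -0.9114 to -0.6790 with 1 array left out. In Z units Smad3 on stimulation of naïve cells (-0.3107 in WT, -0.3663 in BAF180-deficient cells) and Tgfbr1 between WT Th2 states (-0.3595) were no longer called, while Smad4 between WT resting states (-0.4518), and in BAF180-deficient cells Smad2 on stimulation of naïve cells (0.4000) and between resting states (0.4512), were now called. Without background correction Smad2 on stimulation of BAF180-deficient naïve cells was called (0.2652). Lost without a filter and with only the arrays compared were Smad3 (-0.8474 in WT, -0.8855 in BAF180-deficient cells), Tgfbr1 between WT resting states (-0.5940) and Smad4 between BAF180-deficient resting states (-0.4445, also with detection on at least 3 arrays). Lost without a filter alone was Tgfbr1 between WT Th2 states (-0.5615), and with only the arrays compared Smad2 on stimulation of WT naïve cells (0.4360) and Smad4 between WT Th2 states (-0.5787). As means over probes, Tgfbr1 in WT between resting states (-0.3053) and between Th2 states (-0.3583) and Tgfbr2 between Th2 states (-0.4004 in WT, -0.2935 in BAF180-deficient cells) were not called. The 7 member probes called on stimulation of WT naïve cells became 4 with only the arrays compared and 4 to 8 with 1 array left out (4 without stimulated replicate A), and the 5 between WT resting states became 3 without a filter or with only the arrays compared and 3 to 6 with 1 array left out (3 without Th2 replicate B or C, or naïve replicate A). Leaving out 1 array ended a call 28 times, added one 4 times and changed none 172 times, and the ranges were as follows. On stimulation of naïve cells they were -0.6817 to -0.3141 for Smad1, 0.3122 to 0.5665 for Smad2 and -1.1483 to -0.6100 for Smad3 in WT, and -1.3626 to -0.6098 for Smad3 in BAF180-deficient cells. Between resting states they were -0.7625 to -0.3755 for Tgfbr1 and -0.5951 to -0.2315 for Smad4 in WT, and -0.5607 to -0.3283 for Smad4 and 0.1982 to 0.4219 for Smad2 in BAF180-deficient cells. Between WT Th2 states they were -0.6682 to -0.4109 for Tgfbr1 and -0.7495 to -0.3859 for Smad4. The cause of these changes was not tested, beyond the smaller number of arrays or the larger number of probes tested in the alternatives named for them.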
